A study of Mus musculus with 4 samples.

Results

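Immediate early transcription factors of the AP-1 and Egr families were followed in cultured mouse melanocytes that have or lack the aryl hydrocarbon receptor (AhR), together with the early-response genes Ier3 and Myc. The 10 genes were Fos, Fosb, Fosl1, Fosl2, Jun, Junb, Jund, Egr1, Ier3 and Myc, taken by gene symbol from 12393 genes that the array's annotation names. They had 12 probe sets, since Fosl1 and Jun have a pair each, and each gene was read from its brighter probe set. A probe set is the group of short oligonucleotides that reads 1 transcript. Melanocytes are the pigment cells of the skin. They were grown from tail epidermis of 2 wild-type female mice, strain C57Bl/6, and of 2 AhR knockout female mice, strain AhRtm1Bra, which lack exon 2 of the receptor gene throughout the body. Cells of both genotypes were kept for 6 to 8 weeks in the same serum-free melanocyte growth medium, with no other agent named. Each array holds the RNA of an individual mouse, n is 2 in each group, and the labels used here give no age. The comparison asks which of these transcripts differ when the receptor is missing.

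AP-1 is a dimer of a Jun protein with a Fos protein or with another Jun protein, joined through a leucine zipper. It binds DNA at sites of the form TGANTCA, with C or G as the usual centre, or at the related TGACGTCA. Growth factors, stress and ultraviolet light switch on Fos, Jun and Egr1 within minutes through MAP kinases, without new protein synthesis, and the transcripts decay quickly. In skin, AP-1 takes part in proliferation, matrix breakdown and the response to ultraviolet light. AhR itself is a transcription factor, switched on by ligands such as dioxins, whose DNA sites have the core GCGTG. No stimulus before harvest is named in the labels used here.

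The 250 bases before the start of a gene were taken from the RefSeq promoter table (GRCm38.p6), and 7 of the 10 genes were searched. Fosl1, Egr1 and Myc were not among them. The search of members skipped the entries of a chromosome, which the shares over all entries keep. A gene missing from the search may therefore still be in that table. Those of Jun, Fos and Ier3 are given 5′ to 3′ on the gene's strand, as bright members with a promoter entry. Jund, brighter than Jun and Fos, also has an entry, but it is left unprinted because it may not lie before the gene's main start: its ratio of observed to chance-level CpG is 0.213, against 0.465 to 0.893 in the other 6. Jun lies at chr4:95052223-95052472 (minus strand), Fos at chr12:85473640-85473889 (plus strand) and Ier3 at chr17:35821463-35821712 (plus strand). Capitals mark matches to TGACNTCA, to the TATA box TATAAA and to the GC box GGGCGG, on either strand.
Jun: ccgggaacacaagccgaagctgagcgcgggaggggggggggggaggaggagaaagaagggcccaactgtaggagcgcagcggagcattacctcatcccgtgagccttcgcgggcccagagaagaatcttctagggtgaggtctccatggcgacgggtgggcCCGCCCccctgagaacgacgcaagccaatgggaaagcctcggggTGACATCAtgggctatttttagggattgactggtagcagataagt
Fos: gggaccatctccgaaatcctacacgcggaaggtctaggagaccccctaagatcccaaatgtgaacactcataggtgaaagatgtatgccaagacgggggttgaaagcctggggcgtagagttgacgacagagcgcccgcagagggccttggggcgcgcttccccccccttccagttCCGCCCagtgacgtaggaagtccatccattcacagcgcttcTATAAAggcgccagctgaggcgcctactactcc
Ier3: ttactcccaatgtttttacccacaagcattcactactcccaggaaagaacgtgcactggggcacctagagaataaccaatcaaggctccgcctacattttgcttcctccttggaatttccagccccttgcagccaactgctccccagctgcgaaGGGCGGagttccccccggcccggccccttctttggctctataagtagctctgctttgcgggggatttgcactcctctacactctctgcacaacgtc
TGACNTCA was found in Jun alone of the 7, as TGACATCA from 45 to 38 bases before the start, and in 7.49% of 32851 promoter entries of the same length. TATAAA was found in Fos alone, from 33 to 28 bases before the start, and in 12.4% of all entries. GGGCGG was found in 5 of 7 (Fos, Fosb, Fosl2, Ier3 and Jun) and in 32.7% of all. The AhR core GCGTG was found in Fos and Junb, and in 28.2% of all. TGANTCA, TGACGTCA, the Egr site GCGTGGGCG, which contains the AhR core, the E-box CACGTG bound by Myc, and the CArG box were found in none of the 7. Those shares over all entries were 6.75%, 1.55%, 0.536%, 6.02% and 1.47% in that order. The search for TGANTCA took any base at the centre, so its share is wider than that of the usual AP-1 site. The Jund entry is counted among the 7 and held none of these motifs. A match describes letters and is no evidence of binding. Bases further than 250 from the start were not searched, nor was any base of Fosl1, Egr1 or Myc. An absent match, as for the CArG box, therefore does not show that a gene lacks the site.

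Every array had 22690 probe sets, with median signals between 89.5 and 98.4. Cyp1b1, a known AhR target, read 1216 and 1410 in wild type, against 14.0 and 23.1 in knockout. Ahr itself read 825 and 874 in wild type, 241 in AhR knockout 1, yet 843 in AhR knockout 2. Its probe set was not placed relative to the deleted exon, so it checks no label. Gapdh controls, in which a high ratio of 3′ over 5′ signal goes with shortened RNA, gave a ratio of 11.9 in AhR knockout 2 and of 1.98 to 2.85 on the other arrays. The ratio for actin was 28.0 there and between 7.00 and 8.71 elsewhere. Melanocyte markers (6 of 7 measured, Mlana being the exception) were bright on every array, with a summed signal of 64024 and 52670 in wild type, against 73204 and 100762 in knockout. Of these 6, all tested, 5 were higher and 1, Mitf, was lower on both knockout arrays, and 0 passed the adjusted threshold. Groups did not overlap for 66.7% in the higher direction and 16.7% in the lower, against 28.7% and 26.7% of all genes. The 7 endothelial markers summed to 13296 and 16399 in wild type and to 6550 and 1934 in knockout. Of the 7, 5 were lower at an unadjusted p under 0.05 in limma, against 12.9% of all genes tested, and 0 passed the adjusted threshold. Keratinocyte markers (6 of 6 measured) summed to 1403 in AhR knockout 1 and to between 198 and 305 on the other arrays. Macrophage markers (6 of 6) summed to 1683 and 1642 in wild type and to 3774 and 3339 in knockout. Lyz2 alone carried most of the knockout sums, at 2628 and 2776, against 669 and 881 in wild type. Of the 4 macrophage markers tested, 3 were higher and 1, Cd68, was lower with overlapping groups. Fibroblast markers (6 of 6) summed to 590.1 and 793.8 in wild type and to 318 and 245 in knockout. Col3a1, a fibrillar collagen, carried most of the wild-type sums, at 372 and 439, and fell to 95.1 and 50.5, by 2.29 on the log2 scale (SE 0.39, adjusted p = 0.041). Dcn, the only other fibroblast marker bright enough to test, did not follow it, at log2 0.39 ± 0.42 with overlapping groups. The direction of Dcn turned without wild type 1 (-0.11). Of the 4 too dim to test, Col1a1 read 74.4 and 72.2 in wild type, against 32.6 and 2.47 in knockout. Pdgfra read 35.4 and 82.2 against 19.1 and 0.99. Col1a2 overlapped, and Lum was higher on both knockout arrays. Col3a1 did not pass without wild type 2 (adjusted p = 0.15), under quantile normalization (0.054) or with no signal filter (0.19). In such bulk samples fewer cells of a type and less RNA per cell cannot be told apart, and the part of these cells and of RNA quality in the differences given here was not tested.

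Of the 8 genes bright enough to test, Jund was higher in the knockout cells and 7 were lower, and none passed the adjusted threshold. Jund, Egr1, Jun, Ier3 and Fosl1 separated the genotypes, with both knockout arrays on one side of both wild-type arrays, while Fos, Fosl2 and Myc overlapped. In limma 0 of 8 members passed at an adjusted p under 0.05, against 0.955% of the 7436 genes tested, of which 15 rose and 56 fell (23 and 49 with array medians set equal). Jund and Egr1, 2 of 8, had an unadjusted p under 0.05, against 20.6% of all genes (12.9% lower and 7.68% higher). Groups did not overlap in the lower direction for 4 of 8 members, against 26.7% of all genes, and in the higher direction for 1 of 8, against 28.7%. The median log2 difference over the 8 was -0.32, beside 0.0055 over all genes tested. By array it was -0.15 for AhR knockout 1, and -0.63 for AhR knockout 2, where the 3′ over 5′ ratios were high. Differences are knockout minus wild type of log2(signal + 16), given with the SE from limma, and they understate the change of dim genes.

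**Figure D1:**
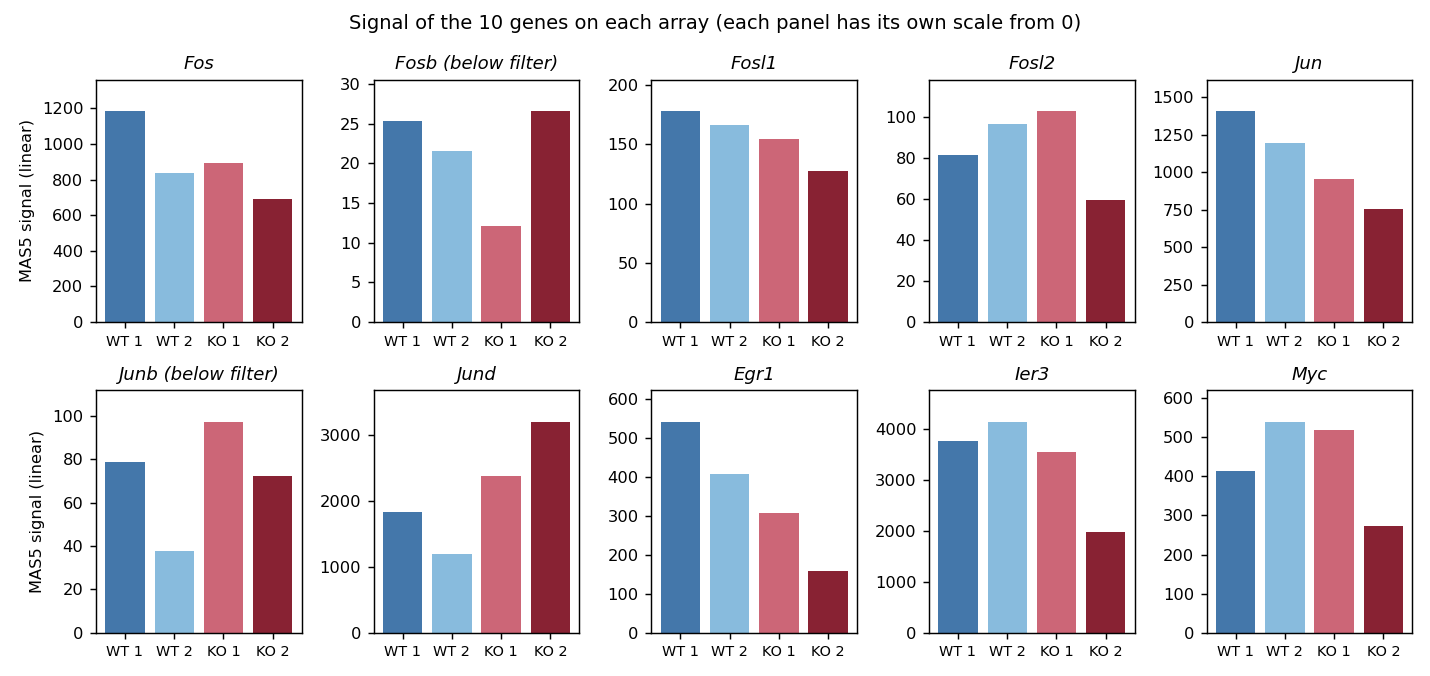
Linear MAS5 signal of each of the 10 genes (vertical axis, own scale per panel, from 0) on the 4 arrays: wild type (WT) 1 and 2 in blue and AhR knockout (KO) 1 and 2 in red. Jund is higher on both knockout arrays, at 2382 and 3191, while Egr1 and Jun are lower on both, and AhR knockout 2 has the lowest bar for Fos, Fosl1, Fosl2, Jun, Egr1, Ier3 and Myc.

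Among the Jun genes, whose proteins can form AP-1 by themselves or with a Fos protein, Jun and Jund lay in opposite directions. Jun, the strongest activator of the family, read 1406 and 1196 in wild type, against 956 and 758 in knockout. Both knockout arrays were below both wild-type arrays, and the wild-type arrays differed from each other by log2 0.23. The log2 difference was -0.60 ± 0.36, with a 95% interval from -1.41 to 0.21 and adjusted p = 0.37. The dimmer Jun probe set read 1342 and 1068 in wild type, against 880.2 and 327 in knockout. It lay the same way, by -1.13 ± 0.49 on the log2 scale (adjusted p = 0.26) where every probe set was fitted by itself. Against the wild-type mean, the probe sets gave log2 -0.43 and -0.44 in AhR knockout 1, but -0.76 and -1.82 in AhR knockout 2, brighter probe set first.

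Jund, which is expressed steadily in many resting cells and can slow growth, read 1833 and 1186 in wild type, against 2382 and 3191 in knockout. The knockout arrays were both above the wild-type arrays, while wild type 2 minus wild type 1 was itself log2 -0.62. Its log2 difference was 0.90 ± 0.37, or 1.86-fold, with a 95% interval from 0.058 to 1.73, unadjusted p = 0.038 and adjusted p = 0.22. Relative to the wild-type mean, Jund lay at log2 0.69 in AhR knockout 1, close in size to that wild-type gap, and at 1.10 in AhR knockout 2. Fits with the other knockout array left out gave these same differences for Jund, and there the lone knockout array is assumed to vary like wild type. Junb, an AP-1 partner that often restrains Jun, was dim and lay below the signal filter. It read 78.9 and 37.8 in wild type, against 97.2 and 72.4 in knockout, with overlapping groups. Fitted without the filter, its log2 difference was 0.49 ± 0.42 with adjusted p = 0.60.

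A ratio of genes within an array is nearly free of how arrays are scaled, and the ratio of Jund to Jun was examined after the values were seen. Relative to the wild-type mean, its log2 value was 0.19 and -0.19 in wild type, and 1.12 and 1.87 in the knockout arrays. The genotypes were apart by 1.49, with an SD of 0.28 between wild-type arrays and 0.53 between knockout arrays. The same ratio of Jun to Fos was apart by -0.26, with values of -0.28 and -0.25 in knockout and -0.13 and 0.13 in wild type. These ratios restate the values of the genes above, whose directions were known when the pairs were picked, and were not tested.

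Among the Fos proteins, which bind DNA in AP-1 only with a partner, none passed the test, and the log2 differences ran from -0.34 to -0.15. Fos, the classical early-response member, read 1183 and 836 in wild type, against 891 and 692 in knockout. AhR knockout 1 lay between the wild-type arrays, so the groups overlapped. Its log2 difference was -0.34 ± 0.38, with a 95% interval from -1.18 to 0.51 and adjusted p = 0.63. Without wild type 1 that difference was -0.089. Fosl1 (Fra-1), which lacks the strong activation domain of Fos and lasts longer after a stimulus, read 178 and 166 in wild type, against 155 and 127 in knockout. Both knockout arrays were lower, by a small margin, and the log2 difference was -0.27 ± 0.35 with adjusted p = 0.69. The dimmer Fosl1 probe set read between 1.39 and 16.05 and was too dim to use.

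Fosl2 (Fra-2), the relative of Fosl1, read 81.3 and 96.6 in wild type, 103 in AhR knockout 1, but 59.4 in AhR knockout 2. The knockout arrays lay on opposite sides of the wild-type pair, and the log2 ratio was -0.15 ± 0.39 (adjusted p = 0.85). Its direction turned without AhR knockout 2, to 0.18. Fosb was near the bottom of the array's range, at 25.4 and 21.5 in wild type, against 12.2 and 26.5 in knockout, and lay below the signal filter. Fitted without the filter, its log2 difference was -0.19 ± 0.32 with adjusted p = 0.80.

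Egr1, a zinc finger factor of growth and vessel-wall genes and the only Egr gene of the 10, had the largest difference of the 8 as reported. Jund's was larger under quantile normalization, with array medians set equal, without wild type 1 and without AhR knockout 2, and Jun's with the second brightest probe set. Egr1 read 541 and 407 in wild type, against 308 and 159 in knockout. Both knockout arrays were below both wild-type arrays, and AhR knockout 2 read lowest. Wild type 2 minus wild type 1 was log2 -0.40. The log2 difference was -1.03 ± 0.41, which is 2.04-fold lower, with a 95% interval from -1.95 to -0.11, unadjusted p = 0.032 and adjusted p = 0.20. AhR knockout 1 alone was lower by log2 -0.58 and AhR knockout 2 by -1.48. Fits with the other knockout array left out gave these same differences, and there the lone knockout array is assumed to vary like wild type. The ratio of Egr1 to Fos within an array lay at log2 -0.43 in AhR knockout 1, against -0.96 in AhR knockout 2, relative to the wild-type mean. The wild-type arrays were 0.048 to either side of that mean.

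The profiles nearest to that of Egr1 over the 4 arrays were those of Myo10, Rap2a and Agap1, at Euclidean distances of 0.18 to 0.19 between log2 values centred on each gene's mean. With 4 arrays such a likeness describes the shape only. Myo10, an unconventional myosin of filopodia, read 664 and 495 in wild type, against 435 and 222 in knockout. Rap2a, a small GTPase of the Ras family, had a log2 difference of -0.90 ± 0.41, and Agap1, an Arf GTPase-activating protein, had -0.87 ± 0.41. Their adjusted p lay between 0.25 and 0.28.

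Ier3, an early-response gene of cell survival under stress, was bright on all arrays. It read 3763 and 4126 in wild type, 3535 in AhR knockout 1, but 1968 in AhR knockout 2. The groups did not overlap, but AhR knockout 1 was close to wild type and the distance came mostly from AhR knockout 2. The log2 difference was -0.58 ± 0.37 with adjusted p = 0.39. It was -0.16 with AhR knockout 2 left out and -0.996 with AhR knockout 1 left out, each resting on a lone knockout array. Myc, a driver of growth and ribosome synthesis, read 414 and 539 in wild type, 519 in AhR knockout 1, but 274 in AhR knockout 2. AhR knockout 1 lay between the wild-type arrays, and the log2 difference was -0.31 ± 0.41 with adjusted p = 0.69. Without AhR knockout 2 it was 0.13, so the direction of Myc rested on that array.

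**Figure D2:**
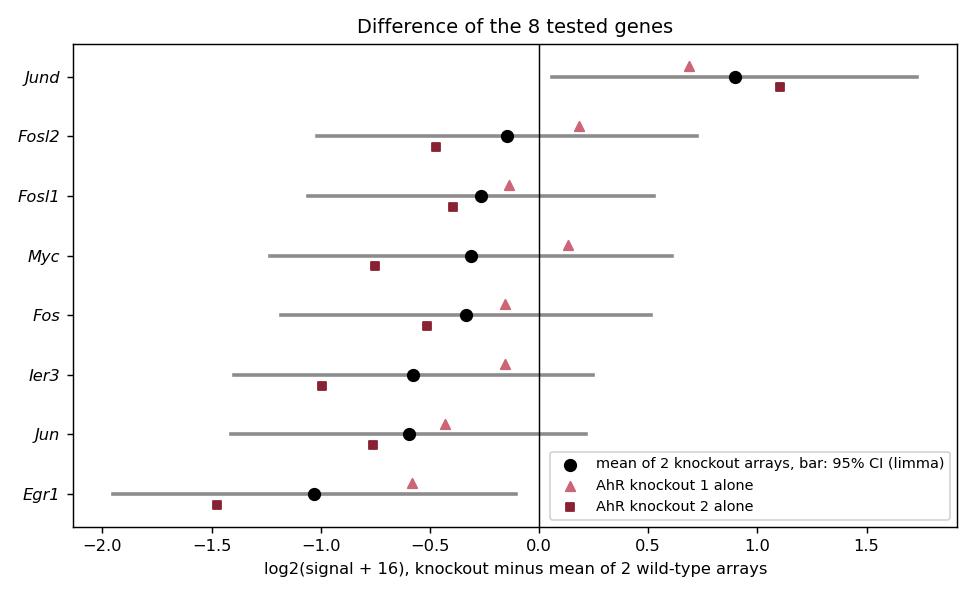
Log2 difference (horizontal axis, log2(signal + 16), knockout minus the mean of the 2 wild-type arrays) of the 8 tested genes (vertical axis). Black points are the mean of both knockout arrays with the 95% interval from limma, and triangles and squares are AhR knockout 1 and 2 alone; Jund is above 0 and Egr1 below 0 over the whole interval, before adjustment, and AhR knockout 2 is the lower of the pair for all genes but Jund.

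Other immediate early genes were mostly lower as well, and Ptgs2 alone passed. All 30 genes of that list were measured and 24 were tested, of which 17 were lower and 7 higher. Groups did not overlap for 12 lower genes (50% of the list, against 26.7% of all genes) and 3 higher genes (12.5%, against 28.7%). At an unadjusted p under 0.05 in limma 9 of 24 were lower and 2 higher, against 12.9% and 7.68% of all genes. The median log2 difference was -0.76 (-0.21 for AhR knockout 1, -1.17 for AhR knockout 2). Ptgs2, the inducible cyclooxygenase, read 341 and 619.6 in wild type and fell to 57.3 and 15.7 (log2 ratio -3.30 ± 0.48, adjusted p = 0.022). With no signal filter Ptgs2 had adjusted p = 0.19, and its second probe set gave -1.03 on the log2 scale (adjusted p = 0.22). Ccn2 and Ccn1, secreted matricellular proteins, had log2 differences of -1.43 ± 0.33 and -1.59 ± 0.42, with adjusted p = 0.069 and 0.095. Neither passed when a wild-type array was left out. Both passed when a knockout array was left out, where the lone knockout array is assumed to vary like wild type and far more of all genes passed. Endothelial cells also express both, and endothelial markers were lower in the same arrays, as given above. Whether the differences of Ccn1 and Ccn2 go with these cells was not tested.

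The list was not of one direction. After the values were seen, Nr4a1, Klf2, Atf3, Dusp1, Egr2 and Egr3 were added as examples. Nr4a1, an orphan nuclear receptor that serum induces, read 309 and 204 in wild type, against 621 and 702 in knockout (log2 ratio 1.34 ± 0.37, adjusted p = 0.10). Klf2, a zinc finger factor of quiescent endothelium and lymphocytes, read 68.2 and 95.6 against 203 and 183. Atf3, a stress-induced partner of Jun, read 310.0 and 215 against 101 and 100.3 (log2 ratio -1.23 ± 0.37, adjusted p = 0.12). Dusp1, the phosphatase that turns MAP kinases off, read 2877 and 4522 against 3011 and 1384, so its groups overlapped. The nearest relatives of Egr1 were too dim to test, with Egr2 between 10.8 and 43.3 and Egr3 between 16.4 and 84.4.

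Other bZIP factors, which share the zipper with AP-1 and can pair or compete with it, were lower and higher in like numbers. Among 20 tested there were 11 lower and 9 higher genes, and the median was -0.12. None passed in limma, where 4 lower genes and 2 higher genes had an unadjusted p under 0.05 (20.6% of all genes in either direction). Cebpg differed by -1.59 ± 0.39 with adjusted p = 0.075, and Atf2, a partner of Jun that binds TGACGTCA, by -1.46 ± 0.41 with adjusted p = 0.10. Atf2 read 891 and 1146 in wild type, against 258 and 489 in knockout. Cebpd differed the other way, by 1.26 ± 0.36 with adjusted p = 0.11. Of the Egr corepressors, Nab1 differed by -1.34 ± 0.43 and Nab2, itself an Egr1 target, by 0.55 ± 0.36. Their adjusted p were 0.14 and 0.40. Ddx20, a helicase of the same list, differed by 0.20 ± 0.38 with overlapping groups, and its direction turned without wild type 1 (-0.0069) and without AhR knockout 1 (-0.046).

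In the kinases and serum response factors upstream of these genes, 14 genes were tested, 8 lower and 6 higher around a median of -0.44, and none passed. At an unadjusted p under 0.05 in limma 3 of the 14 were lower and 0 higher, against 12.9% and 7.68% of all genes. Mapk9, a Jun N-terminal kinase, read 749 and 1016 in wild type, against 450.0 and 262 in knockout (log2 ratio -1.30 ± 0.40, adjusted p = 0.13). Elk4, a partner of serum response factor, differed by -1.18 ± 0.38 and Map2k1, which activates ERK, by -0.85 ± 0.36. In the Myc network the 13 tested genes split into 7 higher and 6 lower, around a median of 0.10. None passed, 3 of 13 being lower at an unadjusted p under 0.05 in limma, against 12.9% of all genes. Fbxw7, the ubiquitin ligase subunit that degrades Myc and Jun, differed by -1.40 ± 0.39, and Mycn, the Myc paralog, by -1.30 ± 0.39. Max, the obligate partner of Myc, read 442 and 399 in wild type, 282 in AhR knockout 1, but 63.5 in AhR knockout 2. These 3 had adjusted p between 0.10 and 0.18.

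Known targets were listed for each factor, and the lists share some genes. The 16 tested AP-1 targets, which include Fosl1, split into 12 lower and 4 higher around a median of -0.47. None passed, 4 of 16 being lower at an unadjusted p under 0.05 in limma, against 12.9% of all genes. Gja1, the gap junction protein connexin 43, read 9300.3 and 11215 in wild type, against 4204 and 4221 in knockout (log2 ratio -1.27 ± 0.28, adjusted p = 0.065). It passed under quantile normalization, with 0.038. Mmp3, a matrix protease, read 349 and 280.2 against 114 and 102 (log2 ratio -1.41 ± 0.36, adjusted p = 0.083). Timp1, an inhibitor of such proteases, differed by -1.31 ± 0.40. Plau, the urokinase gene, was added after its values were seen: it read 836, 880 and 901 on 3 arrays and 22.6 in AhR knockout 2.

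The 11 tested Egr1 targets split into 6 lower and 5 higher around a median of -0.29, and Ptgs2 alone passed. At an unadjusted p under 0.05 in limma 5 of 11 were lower and 1 higher, against 12.9% and 7.68% of all genes. Groups did not overlap for 54.5% in the lower direction and 36.4% in the higher, against 26.7% and 28.7% of all genes. Thbs1, an adhesive inhibitor of angiogenesis, read 2876 and 2595 in wild type, against 815 and 209 in knockout, with adjusted p = 0.057. Pdgfb, a growth factor made by endothelium, read 530.5 and 549 against 196 and 110 and had adjusted p = 0.064. F3, tissue factor, added after its values were seen, went the other way at log2 1.49 ± 0.37 with adjusted p = 0.080. The 22 tested Myc targets split into 13 lower and 9 higher around a median of -0.19. None passed, 4 of 22 being lower at an unadjusted p under 0.05 in limma, against 12.9% of all genes. Of these, Hspd1, a mitochondrial chaperonin, differed by -1.15 ± 0.34, Nolc1, a nucleolar protein, by -0.83 ± 0.36 and Tfrc, the transferrin receptor, by -0.85 ± 0.37.

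Which genes of these and the marker lists passed depended on the arrays and on the processing. Of the 40 that the naming rule took from the lists, 4 passed with all arrays. The number was 27 without AhR knockout 1, 26 without AhR knockout 2, 7 without wild type 1 and 3 without wild type 2. With no signal filter it was 1, in the top 40% of genes 1 of the 24 still tested, and with a pseudocount of 64 it was 7.

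**Figure D3:**
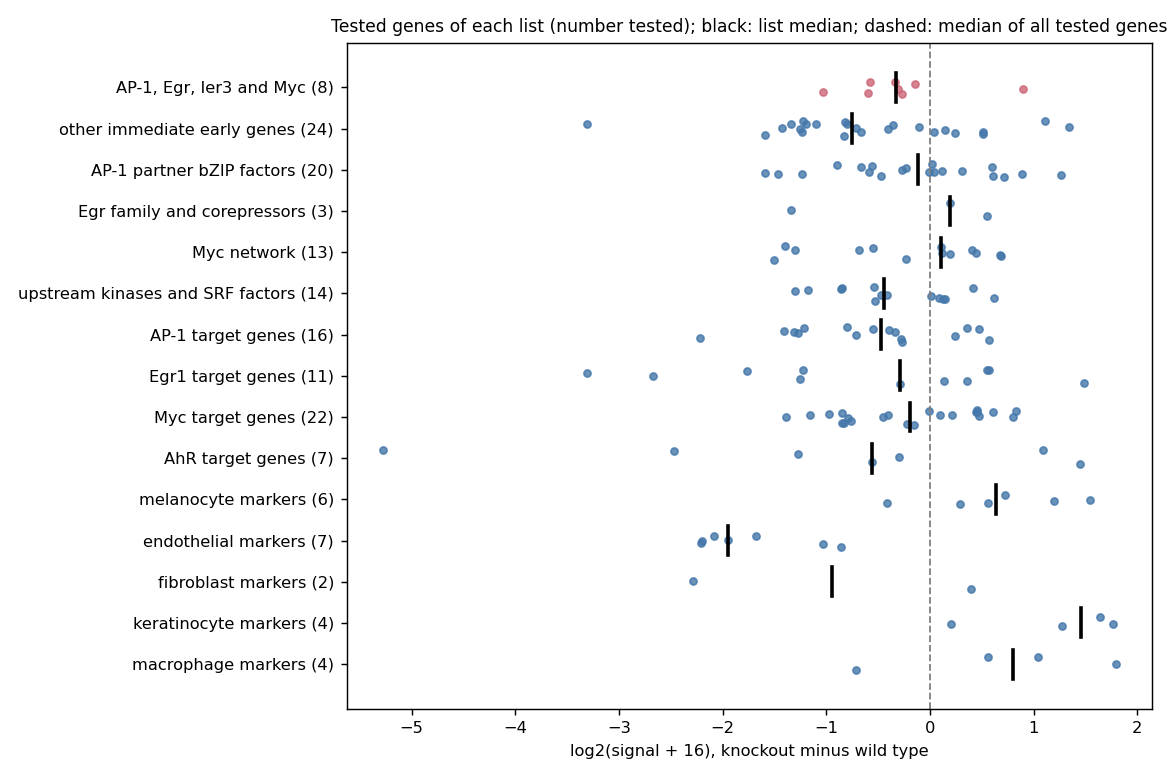
Log2 difference (horizontal axis, log2(signal + 16), knockout minus wild type) of each tested gene in the lists, with the number tested in brackets; points are jittered vertically, black bars are list medians and the dashed line is the median of all tested genes. The 8 tested AP-1, Egr, Ier3 and Myc genes have a median of -0.32, other immediate early genes of -0.76 and the 7 endothelial markers of -1.94.

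Known AhR targets were read beside these genes. Of 7 tested, 5 were lower and 2 higher, against 3695 and 3741 of all genes tested. Groups did not overlap for 57.1% in the lower direction and 28.6% in the higher, against 26.7% and 28.7% of all genes. Cyp1b1 and Ahrr, the AhR repressor, fell, 2 of 7 against 0.955% of all genes passing in either direction. Their log2 differences in limma were -5.27 ± 0.36 and -2.47 ± 0.37, with adjusted p = 4.537e-04 and 0.022. Ahrr no longer passed without wild type 2 (adjusted p = 0.066) or with no signal filter (0.19). Among the 8 tested AP-1, Egr, Ier3 and Myc genes the reported differences lay between -1.03 and 0.90. The median over the 7 AhR targets, -0.56, lay within that range. Selenbp1, a selenium-binding protein, lay higher by log2 1.45 ± 0.39 (adjusted p = 0.096).

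Directions of the 8 tested members held in the scaling, filter and variance alternatives run, and only leaving out an array turned any. Over the 15 settings in which they were fitted, Egr1 ran from -1.48 to -0.58, Jund from 0.58 to 1.21 and Jun from -1.13 to -0.43 on the log2 scale.

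**Figure D4:**
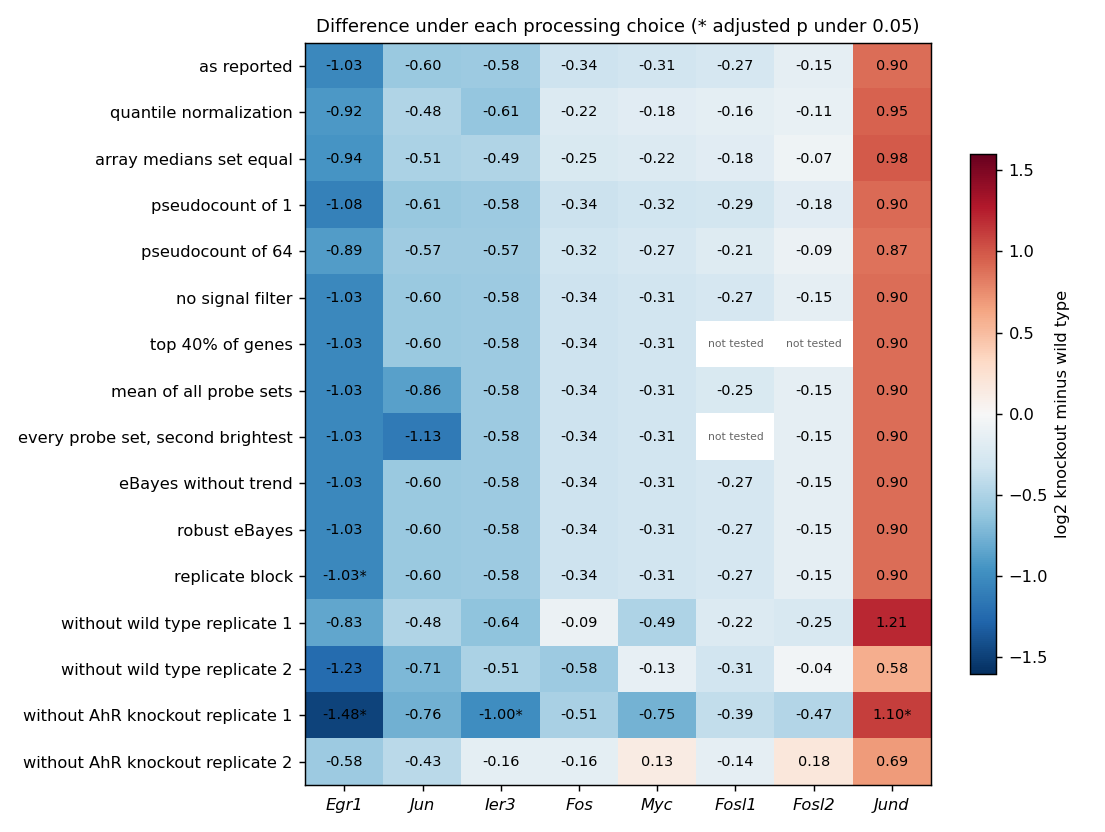
Log2 difference (colour and number, knockout minus wild type) of the 8 tested genes (columns) as reported and under each processing choice or with an array left out (rows); an asterisk marks adjusted p under 0.05. Jund stays above 0 and Egr1, Jun, Ier3, Fos and Fosl1 stay below 0 wherever tested, while Fosl2 and Myc turn without AhR knockout 2.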

How the data were processed

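Amplified RNA of 4 mice, with a biotin label, was read on Affymetrix arrays of 1 colour, as the labels' protocols state. The authors deposited linear signal intensity from MAS5, per the submitters' processing notes; version, detection calls and filters were not given in the sources used here. On each array the middle 96% of probe sets averaged 499.9, and scaling of this kind hides any change shared by most transcripts. Of 22690 probe sets, 64 were controls, 20380 had 1 gene symbol, 691 several and 1555 none. Symbols were updated through gene identifiers of the RefSeq table (GRCm38.p6), which held the identifier of 20351 of the 20380 probe sets. All columns were used, with 0 left over.

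Each gene was read from its brightest probe set. The top 60% of genes by mean signal (lowest 81.1), 7436 in all, were compared on log2(signal + 16) with limma 3.58.1 (lmFit and trended eBayes, R 4.3.3); p-values were adjusted by Benjamini-Hochberg over all of them, with a threshold of 0.05. Rises and falls are written only of genes past it. Arrays carry no counts, so their number limits the precision. The fit was tested on simulated arrays of these genes. Alternatives were other scaling, pseudocounts, filters, probe set rules and variance models, a block and leaving out each array. The members and the 14 other lists (200 genes, 15 of them in more than one list) were chosen with earlier results of these data known. Named from each list were genes past the threshold and, in any case, the 3 with the smallest p; others are marked where they appear. Of the cell type marker lists, sums, medians, counts and the gene past the threshold are given. Other marker genes were named after their values were seen, to qualify these. Figures were drawn with matplotlib 3.10.9.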

Additional observations from a re-analysis of the deposited data

How the results depend on the processing

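No member passed the adjusted threshold as reported or at an adjusted p under 0.10, and of the alternatives that kept all arrays only the replicate block changed this. The block uses title numbers 1 and 2, which are not stated to share a litter, batch or day. It adds a term to the fit, so 4 arrays leave little to estimate each gene's own spread. In limma the block fit thus leans more on the spread of other genes. With it 1 member fell, Egr1, with adjusted p = 0.019 and an unaltered log2 difference of -1.03, while 440 of all genes rose and 966 fell, against 15 and 56, and 32 of the 40 named list genes passed, against 4. Same-numbered arrays' deviations from their group means correlated at 0.353 across genes, which with 2 pairs does not show pairing. Leaving out an array gave 0 to 1 rising members and 0 to 2 falling members, and moved their median log2 difference between -0.63 and -0.15. The calls (Jund, Egr1 and Ier3) came without AhR knockout 1, where the lone AhR knockout 2 is assumed to vary like the wild-type arrays. Leaving out an array moved Fosl2 between -0.47 and 0.18 and Myc between -0.75 and 0.13, and both turned without AhR knockout 2; the cause was not tested. The number of all genes passing went from 15 higher and 56 lower to 0 and 1 without the signal filter, 7 and 19 with quantile normalization, 9 and 34 with a pseudocount of 1, 5 and 15 in the top 40% and 3 and 13 with the second brightest probe set. Without AhR knockout 1 it was 532 and 828, without AhR knockout 2 230 and 801, without wild type 1 41 and 111, and without wild type 2 4 and 16. Fosb and Junb lay below the signal filter and were tested only without it, where neither passed.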
